A study of Mus musculus with 10 samples.

Results

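The genes described here are 50 developmental regulators that encode homeodomain or paired-domain transcription factors outside the Hox clusters. They were taken from a list of names and not by a methylation threshold, but the list was chosen with earlier results of these data known. The genes fall into 7 groups: 9 Pax genes, 6 distal-less genes (Dlx), 8 LIM homeobox genes (Lhx), 5 sine oculis homeobox genes (Six2 to Six6), 6 Nkx genes, 6 Iroquois genes (Irx) and 10 head and other homeobox genes (Emx, Otx, Gsc, En, Msx and Barx1). They are 50 of 21884 protein-coding mouse genes in the annotation. A CpG site was used where all 10 animals had 10 reads or more there. Of the 904364 such sites, 5143 lay between 2 kb upstream of the start and the end of one of these genes, and 49 of the 50 genes held at least 1. Pax4 held none. No CpG site belonged to more than 1 of the genes.

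The data were reduced representation bisulfite sequencing (RRBS) of spermatozoal DNA from male C57Bl/6 mice. In the P-generation, 2 vehicle-control animals (C8 and C14) received 7.5% DMSO in phosphate buffered saline, and 3 decitabine treated animals (D10, D11 and D13) received 0.1 µg/g of decitabine in that vehicle. Animals were 7 weeks old at the first intraperitoneal injection, and the 3 weekly injections went on for 7 weeks. The F3-generation held 2 animals of the vehicle lineage (F3C9, descended from C8, and F3C30, from C14) and 3 of the decitabine lineage (F3D1 and F3D31 from D10, F3D7 from D11), bred from treated males and untreated females and not injected themselves. Decitabine is a cytidine analogue that traps DNA methyltransferases after its incorporation into DNA. Spermatozoa were released from minced whole epididymides and filtered, a preparation that can carry some somatic cells.

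Homeobox and paired-box genes lay down the body plan, specify organs and neuron types, and are silent in spermatozoa. Many of them lie in long CpG islands that are kept free of DNA methylation and are instead covered by Polycomb proteins and by histone marks that sperm chromatin partly retains. Methylation of such islands in somatic cells is known from ageing and tumours, so a gain in sperm DNA would be a visible departure from the usual germline state.

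RRBS starts with MspI, which cuts at CCGG, so a gene is measured only where its sequence holds this site. CCGG occurred within 1 kb of the start in 98% of the 50 genes, with a median of 13 sites, against 86.3% and a median of 6 over 21874 protein-coding genes, and in the 250 bases upstream of the start in 76% against 52.1%. The ratio of observed to expected CpG in the 2 kb around the start had a median of 0.624 in the 50 genes, 0.591 in 39 Hox genes, 0.746 in 44 forkhead genes and 0.474 in all genes. The 250 bases before the starts of Barx1 and Six2 are printed here from the GRCm38 genome (mm10) on the strand of the gene, 5′ to 3′, with every CpG in capitals, since they show what a well measured promoter of this family looks like.
Barx1, chr13:48662748-48662997, plus strand: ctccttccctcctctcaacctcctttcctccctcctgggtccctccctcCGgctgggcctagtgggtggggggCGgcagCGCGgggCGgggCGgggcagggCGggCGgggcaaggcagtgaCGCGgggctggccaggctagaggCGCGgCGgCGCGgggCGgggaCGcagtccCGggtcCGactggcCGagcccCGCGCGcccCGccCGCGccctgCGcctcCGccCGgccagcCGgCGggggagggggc
Six2, chr17:85688275-85688524, minus strand: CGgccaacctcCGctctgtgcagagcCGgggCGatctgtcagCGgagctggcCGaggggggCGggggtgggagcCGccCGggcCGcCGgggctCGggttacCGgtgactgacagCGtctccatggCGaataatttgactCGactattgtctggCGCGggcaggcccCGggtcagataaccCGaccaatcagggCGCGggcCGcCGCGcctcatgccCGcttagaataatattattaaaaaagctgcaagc
The Barx1 sequence held 31 CpGs and 4 CCGG sites, and its 21 measured CpG sites had a mean methylation of 0.550%. Six2 held 26 CpGs and 5 CCGG sites, with a mean of 0.851% over 23 measured CpG sites.

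The coverage summed over all cytosines of an animal ran from 48903817 in D13 to 115158278 in F3D1 (a read counts once for each CpG it covers), and the median coverage at the CpG sites of the 50 genes from 41 reads in D13 to 97 in F3D1. C8 had the fewest CpG sites with 10 reads or more, 1013793 against 1106046 to 1252317 in the other animals. This vehicle-control animal also stood apart in its levels. At the 5143 CpG sites, the mean distance of C8 to the other animals (1 minus Pearson's r across CpG sites, which are not replicates) was 0.138, against 0.0473 to 0.0741 for the other 9. C8 lay at least 25 percentage points from the median of the others at 179 of these CpG sites, above it at 124 and below it at 55. The other animals did so at 3 (C14) to 43 (D11). C8 also had the highest median level over 8 measured of 11 imprinted promoters that are unmethylated in sperm and methylated on 1 allele in somatic cells (20.5%, others 6.96% to 15.9%, C8 highest in 4), and over 9 measured of 10 germline promoters that are methylated in most somatic cells (35.2%, others 12.2% to 31.8%, C8 highest in 4). Upstream of H19, which is methylated in sperm, the level over 2 CpG sites was highest in C8 (100%) and lowest in F3C9 (84.6%). Whether the sequenced samples held somatic cells was not tested here. The paper measured sperm purity by flow cytometry in randomly chosen samples of the P-generation. It reported a high purity that was nearly the same between groups, and does not say whether C8 was among the samples measured. The part of the differences between C8 and the other animals in the results below was not tested. Values against C14 alone, or without C8, are given beside the main results of the P-generation.

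The promoters, taken as the CpG sites within 1 kb of the gene start, were close to unmethylated in every animal where at least 5 CpG sites were measured. In the 43 genes with at least 5 promoter CpG sites (2090 CpG sites), the mean methylation per gene had a median of 1.31% and ran from 0.706% in Nkx2-2, which specifies pancreatic endocrine cells and ventral neural tube, to 5.75% in Dlx1, which acts in forebrain interneurons. It was under 5% in 42 of the 43. Over the 12293 protein-coding promoters the median was 0.975%, and 92.2% were under 5%. The lowest levels after Nkx2-2 were found for Six5 (0.789%), Barx1 of stomach and tooth development (0.795%), Irx2 (0.798%) and En2 of the midbrain and cerebellum (0.818%). The highest after Dlx1 were Nkx2-5, the cardiac homeobox gene (4.52%), Nkx2-3 of spleen and gut (3.74%), Lhx8, which acts in oocytes and cholinergic neurons (3.06%), and the muscle stem cell gene Pax7 (2.79%).

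Of all 2099 promoter CpG sites of the family, 2098 had a mean over the 10 animals under 20%. The exception lay upstream of Nkx2-3 (chr19, position 43611472) with a mean of 33.1%. Its level was 68.3% in C8, 18.6% in C14, 19.5%, 23.3% and 31.6% in the decitabine treated animals, 47.4% and 22.2% in the vehicle lineage and 24.3%, 32.7% and 43.3% in the decitabine lineage. C8 was the highest, and C14 the lowest of the 10. Pax4, Pax5, Lhx3 and Lhx4 had 0 promoter CpG sites, and Pax8, Dlx5 and Six3 had 3 each, so these 7 promoters were not tested. The 3 CpG sites of Pax8 had a mean of 0% (F3D31) to 24% (F3C9), above the range of the tested promoters in 4 animals.

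**Figure D1:**
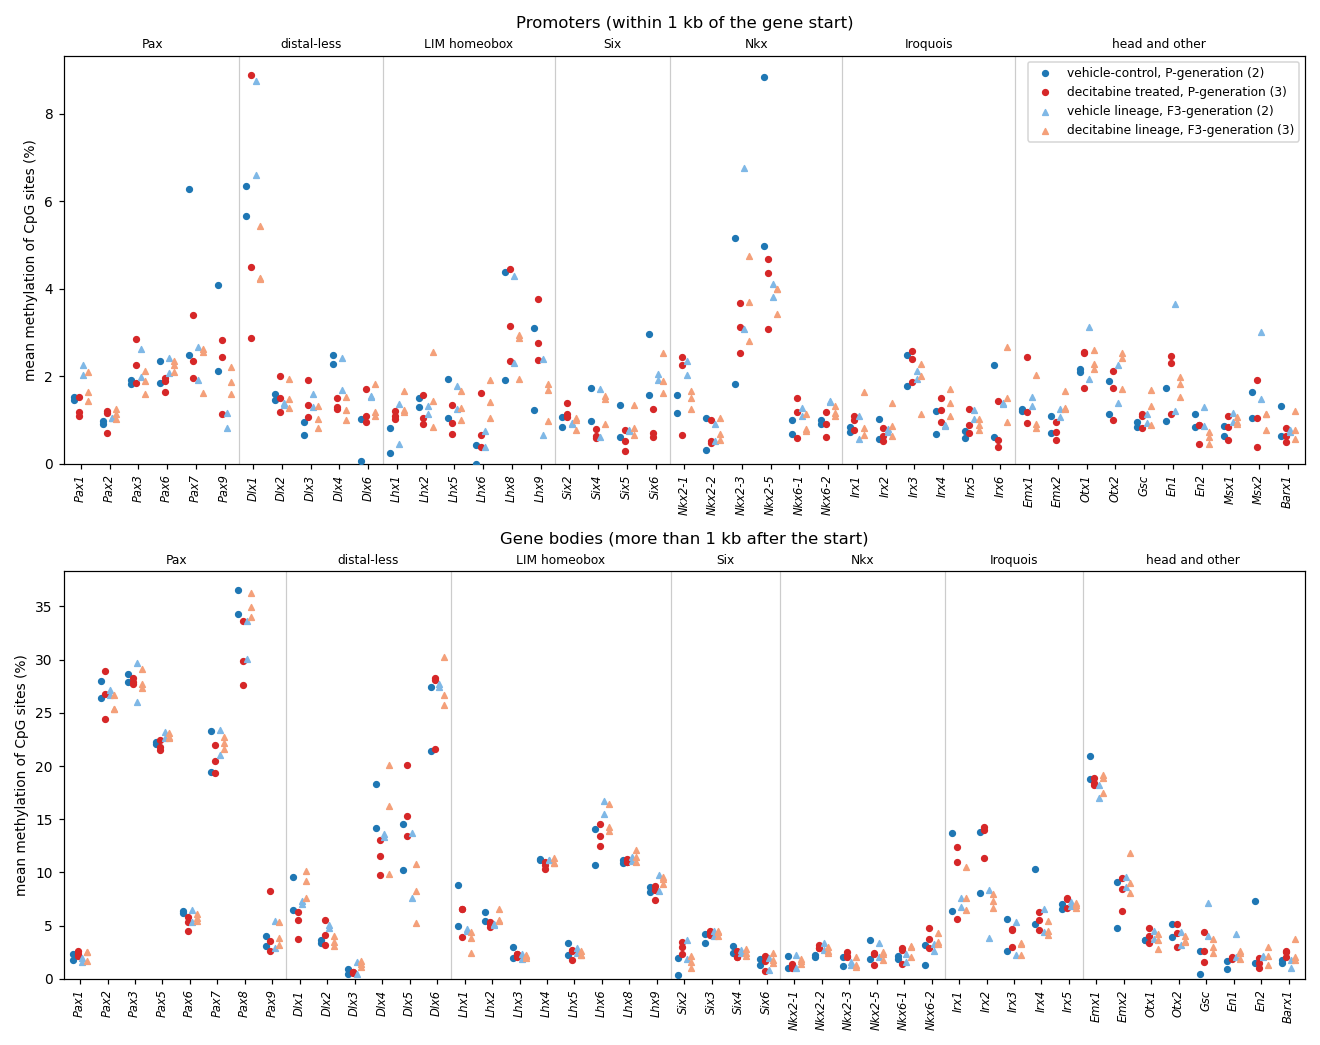
Mean methylation (%) of the promoter CpG sites of 43 genes (upper panel) and the gene body CpG sites of 45 genes (lower panel), with genes on the horizontal axis by group and 1 point per animal, circles for the P-generation and triangles for the F3-generation. Promoters lie under 10% in all animals, while the bodies of Pax2, Pax3, Pax5, Pax7, Pax8 and Dlx6 stand near 20% to 37% in every animal.

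The gene bodies, more than 1 kb after the start, were also poorly methylated, and here the family departed from other genes. Over 45 bodies with at least 5 CpG sites (2858 CpG sites), the median gene level was 4.22%, and 23 bodies (51.1%) were under 5%. Over 10075 protein-coding gene bodies the median was 69.8% and 8.67% were under 5%. The Hox genes had a median of 3.77% over 27 bodies and the forkhead genes 6.42% over 34. The upper quartile was 11% in the present family, 7.95% in the Hox genes, 54.0% in the forkhead genes and 89.7% over all genes. These levels are a description, without a test.

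The 5 lowest bodies were Dlx3 of hair and placenta (0.945%), Nkx2-1 of thyroid and lung (1.51%), Six6 of the retina (1.63%), Nkx2-3 (1.72%) and Barx1 (2.09%). The 5 highest were Pax8 of thyroid and kidney (33.1%), Pax3 of neural crest and muscle (28.0%), Pax2 of kidney and eye (26.6%), Dlx6 of the branchial arches (26.5%) and Pax5, which commits lymphoid progenitors to B cells (22.4%). The Pax bodies had the highest median of the 7 groups, 22%, followed by the distal-less genes with 9.60%, the LIM homeobox genes with 7.11%, the Iroquois genes with 7.03%, the head and other genes with 3.51%, the Nkx genes with 2.34% and the sine oculis genes with 2.31%. Pax4, Six5 and Irx6 had 0 body CpG sites, Msx1 had 4 and Msx2 had 3, and were not tested.

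With distance from the start, the family stayed unmethylated for longer than most genes. Between 2 and 5 kb, the median gene level was 4.60% (39 genes, 855 CpG sites) against 81.0% over all genes, and between 5 and 10 kb it was 3.94% (25 genes, 796 CpG sites) against 88.4%. The forkhead genes, close to the family up to 5 kb (3.95%), had a median of 88.3% between 5 and 10 kb over 10 genes. The Hox genes had 4.25% there over 12 genes. Between 10 and 20 kb the median of the family was 16.7% over 17 genes, with quartiles of 3.83% and 72.0%, and beyond 20 kb it was 69.1% over 8 genes, against 87.7% over all genes. Few genes of the family reach that far, so the bins hold different genes.

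**Figure D2:**
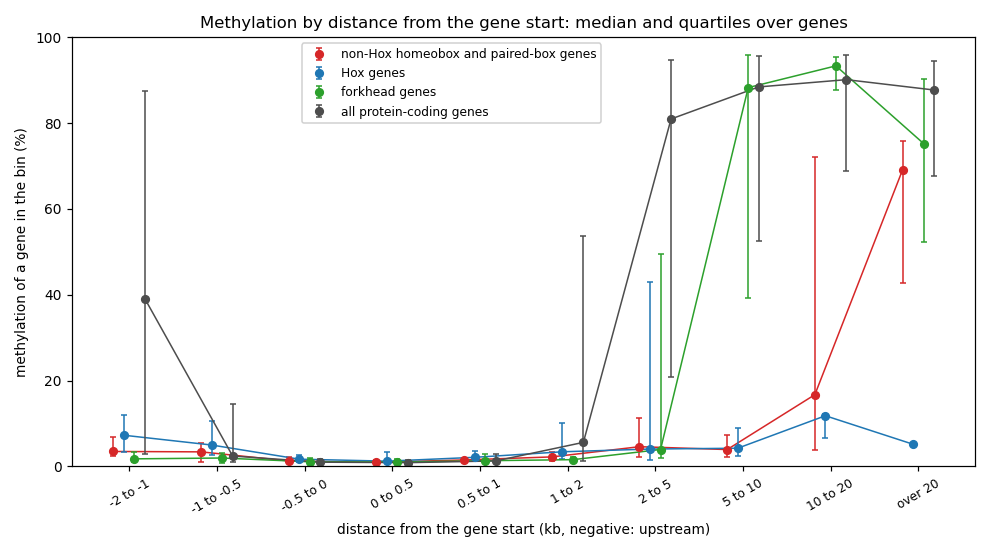
Median methylation (%) over genes by distance from the gene start (kb), with bars from the lower to the upper quartile, for the 50 genes, the Hox genes, the forkhead genes and all protein-coding genes. All 4 sets lie near 1% at the start, and only the Hox genes and the present family have medians under 5% between 5 and 10 kb.

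The methylated CpG sites were few and lay in long genes. Of all 2865 body CpG sites of the family, 89.8% had a mean under 20%, 146 lay between 20% and 80%, and 145 lay above 80%. The 145 belonged to 12 genes, and 110 of them to Pax genes: 48 to Pax5, 26 to Pax2, 23 to Pax7, 10 to Pax3 and 3 to Pax8. Another 25 belonged to LIM homeobox genes, with 13 in Lhx4, and the 5 genes with most held 82.8% of them. These 12 genes had a median length of 42054 bp (17025 to 185731 bp), and the 37 other measured genes a median of 5869 bp (2122 to 31371 bp). Of the 145 sites, 115 were intronic and 23 lay in coding exons. A CpG site above 80% had a median of 5 CpGs within 100 bp, and one under 20% in a body had 16.

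In 19 genes every measured CpG site had a mean over the 10 animals under 20%, though single animals could be higher. Among them were Pax1, Nkx2-1, Nkx2-2, Nkx2-5, Nkx6-1, Nkx6-2, Irx1, Irx2, Six2, Six4, En1, En2, Gsc and Barx1. The other site levels of this paragraph are also such means. Nkx2-2, 16698 bp long, was measured to 15453 bp after its start. In the 29 genes with a CpG site at 20% or more after the start, the first such site had a median distance of 4775 bp. In Lhx2, which acts in forebrain, eye and hair follicle, 194 measured CpG sites in a row from the start to 18361 bp were under 20%, and the next, at 26836 bp, was above 80%. In Irx5, 164 sites to 9663 bp were under 20%, followed by 5 above 80% from 17552 to 17718 bp, near the gene end.

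Pax5 held islands of low methylation inside a methylated body. It was above 80% at 48 CpG sites between 18482 and 161020 bp from the start. Between them, 65 measured CpG sites in a row from 45797 to 46411 bp (chr4:44664076-44664690) had a mean of 1.08%, from 0.290% in the lowest to 2.53% in the highest animal, and 10 sites from 152073 to 152228 bp (chr4:44558259-44558414) had a mean of 3.18%. In Lhx6, which directs cortical interneurons, 22 sites from 10936 to 14099 bp (chr2:36091309-36094472) had a mean of 3.11%, and 1 annotated transcript start lay within 1 kb of that stretch. No annotated start of Pax5 lay within 1 kb of either of its stretches. Near the 3′ end of Pax2 there was a further low stretch, with 13 sites from 79455 to 79589 bp at a mean of 12.2% (6.77% to 24.7% by animal).

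**Figure D3:**
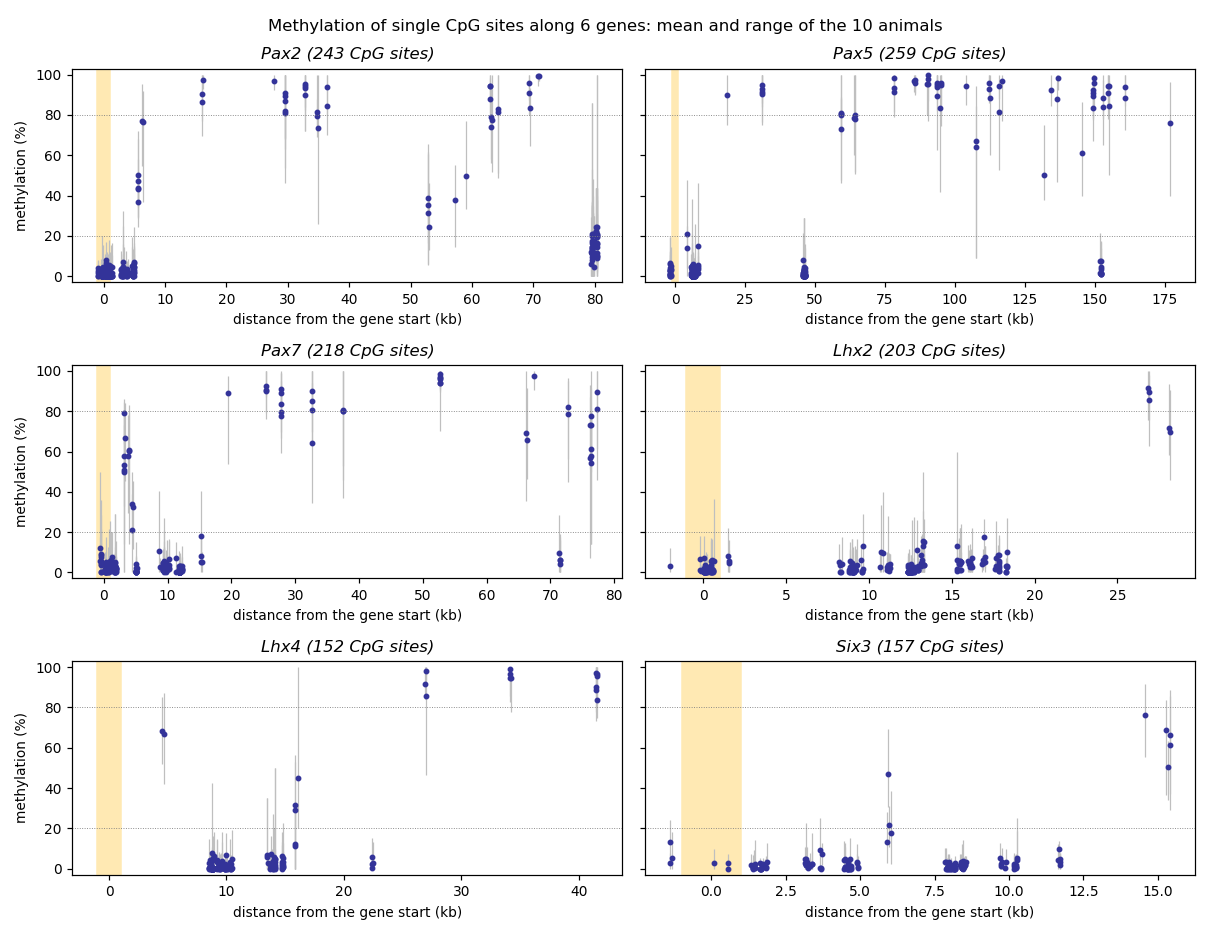
Methylation (%) of single CpG sites by distance from the gene start (kb) in the 6 genes with most gene body CpG sites, with the mean of the 10 animals as a point, their range as a grey line and the promoter shaded. Low sites continue to 18 kb in Lhx2, while Pax5 is mostly above 80% beyond 18 kb apart from the stretches near 46 and 152 kb.

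The first comparison set decitabine treated animals of the P-generation against vehicle-control animals, for direct effects of the drug on the male germ line. Averaged over all promoter CpG sites of the family, the level was 1.44% in C8 and 1.17% in C14, and 1.36%, 1.22% and 1.19% in D10, D11 and D13. The groups overlapped (1.30% ± 0.19 against 1.26% ± 0.095, mean ± SD, n = 2 and 3, exact permutation test over 10 splits, two-sided, p = 0.7). Over the body CpG sites the level was 9.89% and 9.57% against 9.45%, 9.79% and 9.41% (9.73% ± 0.22 against 9.55% ± 0.21, exact permutation test, p = 0.5). With 2 animals against 3 this test cannot give a p-value under 0.1. Without C8, the decitabine mean was 0.087 percentage points above C14 for promoters and 0.022 below it for bodies. Among the 145 CpG sites above 80%, the mean was 87.8% in C8, 92.9% in C14, and 88.8%, 88.2% and 92.4% in the decitabine treated animals, which overlapped too (-0.551 percentage points, exact permutation test, p = 0.8). Against C14 alone the difference was -3.05 percentage points, and all 3 decitabine treated animals were below C14.

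Gene by gene, 0 promoters and 0 bodies of the family passed an adjusted p of 0.05 in the P-generation by limma, a fit across all genes that includes the spread between animals. Over all genes it called 0 of 12293 promoters (0%) and 1 of 10075 bodies (0.00993%). At an unadjusted p under 0.05 the family had 3 of 43 promoters (7.61% of all promoters) and 3 of 45 bodies (8.86% of all bodies). The difference was within 1 percentage point in 39 of 43 promoters and in 28 of 45 bodies. Decitabine treated animals were higher in 22 promoters and lower in 21, and higher in 20 bodies and lower in 25. Against C14 alone they were higher in 27 promoters and lower in 16, and higher in 26 bodies and lower in 19, so that the majority among bodies turned over without C8. With both vehicle-control animals, the family had median log2 differences of 0.02 and -0.02 beside -0.08 and -0.06 over all genes. The groups did not overlap in 3 promoters with decitabine higher (5.9% of all promoters) and 4 with decitabine lower (14.8%), and in 4 bodies with decitabine higher (4.24% of all bodies) and 6 with decitabine lower (15.3%).

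The 5 promoters with the largest differences were all lower in the decitabine treated animals, and all 5 had their highest value of the 10 animals in C8. Nkx2-5 was at 8.84% in C8 and 4.98% in C14, against 4.67%, 4.36% and 3.08% in D10, D11 and D13 (difference -2.87 percentage points, log2 -0.66, SE 0.26, limma adjusted p = 0.601). Pax7 was at 6.27% and 2.49% against 1.95%, 3.39% and 2.36% (limma adjusted p = 0.721). For Pax7, C14 was within the decitabine range, and the difference against C14 alone was 0.077 percentage points. Six6 was at 2.97% and 1.57% against 1.24%, 0.696% and 0.616% (log2 -0.82, SE 0.26, limma adjusted p = 0.556), the smallest p-value of the family's promoters. Against C14 alone the differences of Nkx2-5 and Six6 were -0.941 and -0.718 percentage points. Dlx4 was the only one of the 5 whose vehicle-control animals lay close together, at 2.48% and 2.27% against 1.26%, 1.29% and 1.49% (log2 -0.54, SE 0.20, limma adjusted p = 0.601). Pax9 of vertebrae and teeth was at 4.09% and 2.12% against 2.83%, 2.45% and 1.13%, a difference of 0.015 percentage points against C14 alone.

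Among the bodies, Pax8 had the largest difference, with 36.5% in C8 and 34.3% in C14 against 29.8%, 27.6% and 33.6% (-5.07 percentage points, log2 -0.33, SE 0.14, limma adjusted p = 0.563). Dlx4 was at 18.3% and 14.2% against 9.73%, 13.1% and 11.6%, and Dlx1 at 6.48% and 9.57% against 5.56%, 6.28% and 3.73%. In Pax8, Dlx4 and Dlx1 the groups did not overlap. Against C14 alone the differences were -3.94 percentage points in Pax8, -2.69 in Dlx4 and -4.38 in Dlx1. Dlx5, a partner of Dlx6 in jaw and limb, was at 14.6% and 10.3% against 13.4%, 20.1% and 15.3%. En2 was at 7.31% in C8, 1.52% in C14 and 1.00%, 1.47% and 2% in the decitabine treated animals, so that the difference of -2.93 percentage points was -0.031 against C14 alone. The smallest p-value of the bodies belonged to Nkx2-2, at 2.04% and 2.24% against 2.92%, 3.22% and 2.93% (log2 0.37, SE 0.12, limma adjusted p = 0.440).

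**Figure D4:**
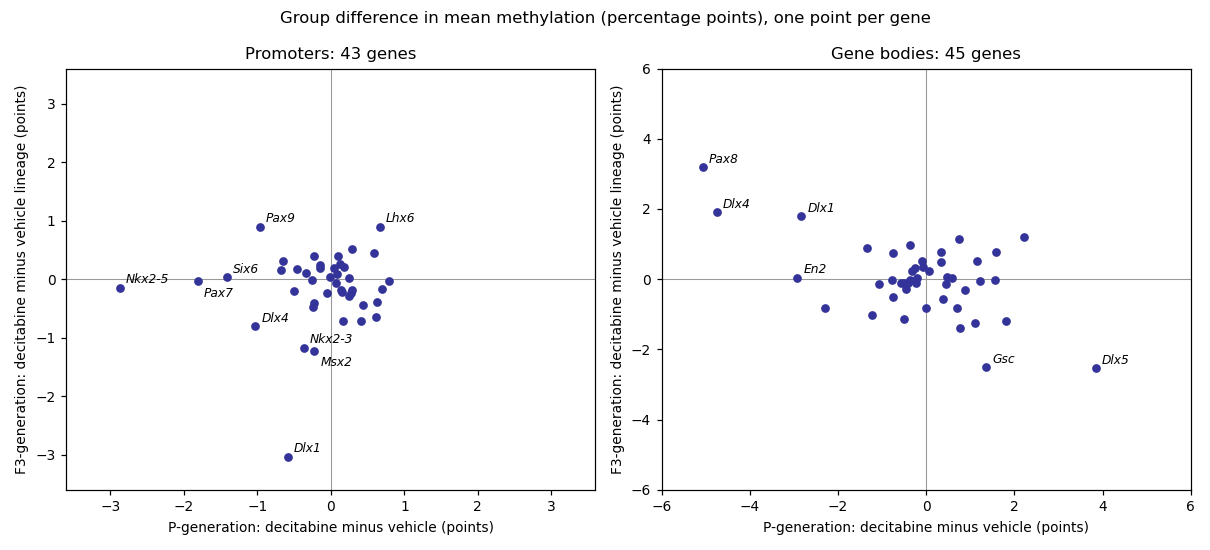
Difference in mean methylation between decitabine and vehicle animals (percentage points), P-generation on the horizontal and F3-generation on the vertical axis, 1 point per gene, for 43 promoters and 45 gene bodies. Promoter differences lie between -3.03 and 0.900 percentage points, body differences between -5.07 and 3.85, and Pax8, Dlx4 and Dlx1 bodies are lower in the P-generation and higher in the F3-generation, none past the test.

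At single CpG sites, 10 of the 5143 were differentially methylated in the P-generation with a q-value under 0.01 where the pooled reads of the groups also differed by 25 percentage points or more (0.194%, against 0.67% of all 904364 CpG sites). The test was the likelihood ratio of a logistic model of read counts, which pools the animals of a group. Decitabine treated animals were higher at 5 (0.316% of all sites were called in that direction) and lower at 5 (0.354%). Of the 151 CpG sites of the family with a mean between 20% and 80%, 8 were called (5.30%, against 4.46% of such sites in the genome), and of the 4847 under 20% 2 were called (0.0413% against 0.0635%). Sites of intermediate level were 151 of 5143 in the family and 103042 of 904364 in the genome. In the Hox genes 8 of 2537 and in the forkhead genes 24 of 4353 CpG sites were called.

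C8 was the highest or the lowest of the 5 animals at all 10 sites, tied with C14 at 1. These sites were called from the same values. At 7 of them the groups did not overlap, so a vehicle-control animal had to be at the edge. The count is therefore no separate evidence on C8. Without C8, 0 of the 10 were still called, while 1 CpG site not among them was. Without C14, which left C8 as the only vehicle-control animal, more sites of the family were called. Without D11, 3 of the 10 were still called. The shares of all sites called with an animal left out are not given here. These changes can therefore not be read as particular to the family. With a term for the spread between animals, 0 sites were called in the family and 0 in the genome. Windows of 30 bases are printed around the 12 called sites of both generations with the largest differences. They are from GRCm38 on the plus strand, 5′ to 3′. The CpG at the centre of each window is in capitals, so that each site can be located in its gene. The Pax5 windows that start at 44602759 and 44602771 overlap, and each holds the called CpG of the other in lower case.
En2 intron, chr5:28169128-28169157: tctcaagttttagcCGgtagcccggatggc
Lhx4 intron, chr1:155735535-155735564: ccaggggcaggagcCGggtcccaccaccct
Pax5 intron, chr4:44602759-44602788: agtgacttctgaagCGtggccctggccggc
Pax5 intron, chr4:44602771-44602800: agcgtggccctggcCGgcagagcagggttt
Pax5 intron, chr4:44706240-44706269: tccggaaccccttcCGggtcttgatctttg
Six3 UTR, chr17:85629010-85629039: cgctccaatttctcCGgtcagctgagcaca
Emx2 coding exon, chr19:59463996-59464025: tgctaccaagcaggCGagtccggaggaaat
Pax5 intron, chr4:44646257-44646286: aagctccctgccccCGaggaatttcattac
Pax6 intron, chr2:105678106-105678135: ctaaaatggtattaCGgaggtccgagccgg
Emx2 coding exon, chr19:59463971-59464000: cacaccacattaacCGgtggagaattgcta
Lhx2 intron, chr2:38367445-38367474: ctcatctgttagccCGgcaaaggactgata
Dlx4 intron, chr11:95142537-95142566: tgttatattgtcatCGctgggctgtaggct
Of the 15 called sites, 14 lay in gene bodies, and by annotation 9 were intronic, 3 were in untranslated regions, 2 in coding exons and 1, in Lhx6, in another exon. They belonged to 10 genes.

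The largest difference was found 3448 bp after the start of En2, at position 28169142. C8 was at 82.4% (17 reads, 95% Wilson interval 59.0% to 93.8%), C14 at 6.67% (15 reads) and D10, D11 and D13 at 0% (24, 27 and 11 reads). The 5 animals of the F3-generation were between 0% and 16.7%. The pooled difference was -46.9 percentage points (q = 9.51e-07), and it was -6.67 without C8.

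Pax5 held 4 of the 10 sites. At the neighbouring positions 44602773 and 44602785, C8 was at 9.09% at both, and the other 9 animals were between 50% and 94.4%. The differences of 37.3 and 37.1 percentage points (q = 0.00570 and 0.00600) were 1.82 and 4.36 without C8. At position 44706254, 4233 bp after the start, C8 and C14 were both at 0% (14 reads each) and D10, D11 and D13 at 15.4%, 47.8% and 36.4%, and here the difference of 36.2 percentage points was the same without C8 (q = 0.0592). The F3-generation was at 12.5% and 17.4% in the vehicle and 21.1%, 23.5% and 36.4% in the decitabine lineage (q = 0.605). At position 44646271, decitabine treated animals were lower, at 61.8%, 51.8% and 84.6% against 100% and 88.2% (-31.3 percentage points, q = 7.01e-04, and -29.0 without C8, q = 0.0160).

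The other 5 sites had both vehicle-control animals on one side except in Lhx6. In an untranslated region of Six3, a gene of forebrain and eye, C8 and C14 were at 28.9% and 52.3%, and the decitabine treated animals at 63.2%, 83.7% and 73.3% (35.1 percentage points, q = 2.72e-04, and 24.3 without C8, q = 0.127). In Emx2 of the cerebral cortex, position 59464010, they were at 9.68% and 52.9% against 62.5%, 81.5% and 65.6% (32.1 percentage points, q = 0.00137, and 15.7 without C8, q = 0.456). In an intron of Dlx4, C8 and C14 were at 48.6% and 37.5% against 27.8%, 13.3% and 10.5% (-27.4 percentage points, q = 0.00833, and -21.6 without C8, q = 0.238). In Lhx6, position 36101931, C8 was at 80%, C14 at 24% and the decitabine treated animals at 29.4%, 0% and 19%, so that C14 lay within the decitabine range (-26.5 percentage points, q = 0.00419, and -7.78 without C8, q = 0.815). In Lhx2, position 38352535, the levels were 50% and 23.7% against 13.2%, 2.13% and 0% (-25.2 percentage points, q = 9.09e-05, and -18.5 without C8, q = 0.0221), and 8 other CpG sites within 100 bp held 0 with a q-value under 0.01.

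**Figure D5:**
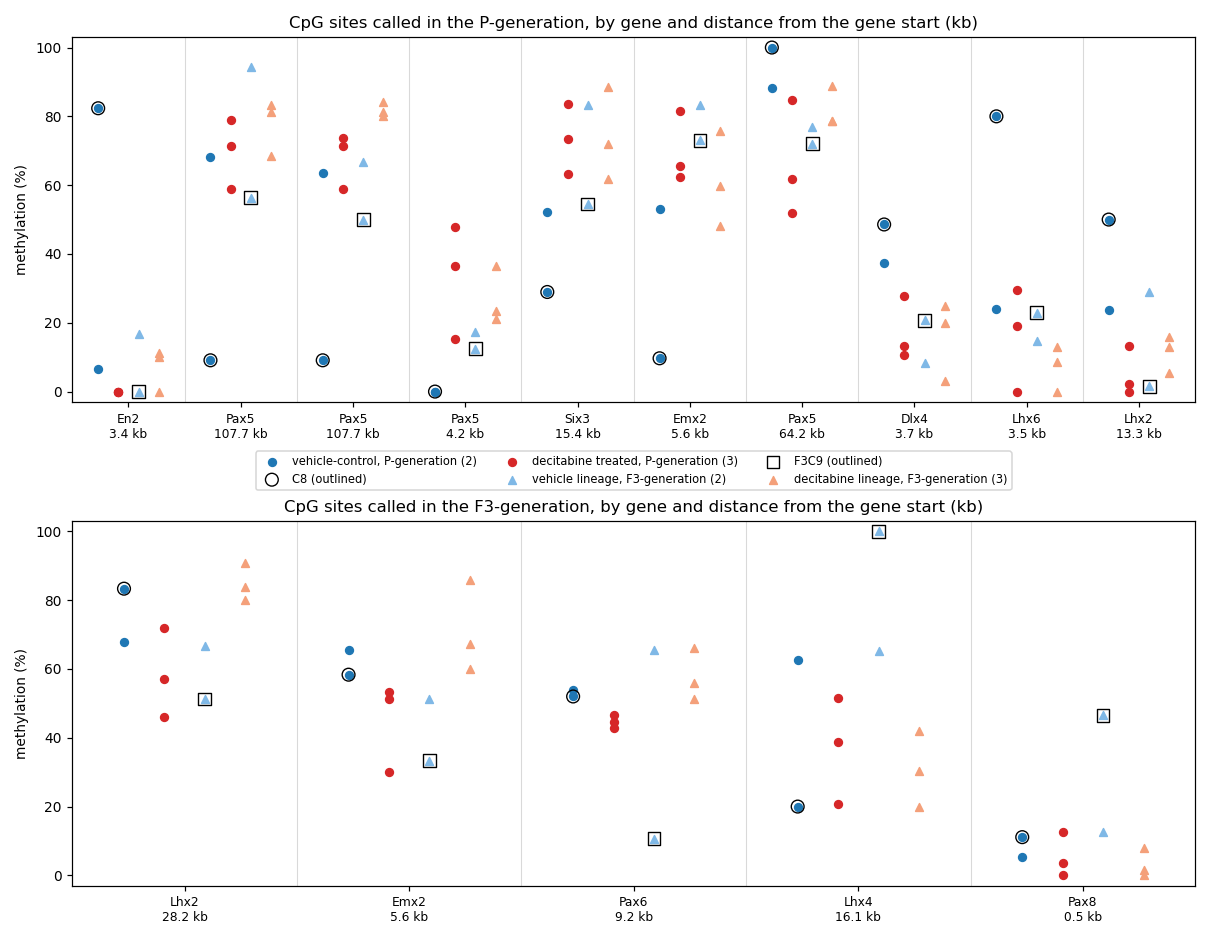
Methylation (%) of every animal at the 10 CpG sites called in the P-generation (upper panel) and the 5 called in the F3-generation (lower panel), labelled by gene and distance from the gene start (kb), with C8 and F3C9 outlined. C8 is at the edge of the 5 animals of the P-generation at all 10 upper sites, and F3C9 at the edge of those of the F3-generation at all 5 lower sites.

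The second comparison set the untreated descendants of both lineages against each other, for transgenerational effects. F3D1 and F3D31 share the ancestor D10, and the tests did not take this descent into account. The promoter CpG sites of the family had means of 1.43% in F3C9 and 1.38% in F3C30, against 1.20%, 1.60% and 1.19% in F3D1, F3D7 and F3D31 (1.40% ± 0.037 against 1.33% ± 0.23, exact permutation test, p = 0.8). The body CpG sites had 9.79% and 9.60% against 9.51%, 9.86% and 9.52% (exact permutation test, p = 0.6). By limma, 0 promoters (0% of all) and 0 bodies (0%) passed the adjusted p of 0.05, and 0 of the family's promoters and 0 bodies had an unadjusted p under 0.05 (2.79% and 2.83% over all genes). The groups did not overlap in 4 promoters with the decitabine lineage higher (11%) and 7 with it lower (6.77%), and in 5 bodies with it higher (12.9%) and 4 with it lower (6.18%).

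The largest promoter differences of the F3-generation were those of Dlx1, Msx2, Nkx2-3, Pax9 and Lhx6. Dlx1, measured at 6 CpG sites only, was at 8.74% and 6.59% in the vehicle lineage against 5.42%, 4.24% and 4.23% (-3.03 percentage points, log2 -0.66, SE 0.36, limma adjusted p = 1.00). Lhx6 was at 0.378% and 0.743% against 1.04%, 1.42% and 1.92%, and Pax9 at 0.814% and 1.16% against 1.59%, 2.21% and 1.88%. Both had no overlap between the lineages at levels under 3%. Among bodies, Pax8 was at 30.1% and 33.6% against 36.2%, 34.0% and 34.9%, with the decitabine lineage higher by 3.19 percentage points, the opposite sign to the P-generation, and the difference between the generations had an unadjusted p of 0.0306 and a limma adjusted p of 0.685. The other large body differences were those of Dlx5 (-2.54), Gsc of the embryonic organizer (-2.51), Dlx4 (1.91) and Dlx1 (1.79 percentage points).

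By the test of pooled reads, 5 of the 5143 CpG sites were called between the lineages (0.0972%, against 0.216% of all sites). The decitabine lineage was higher at 3 (0.147% of all sites) and lower at 2 (0.069%). None of these 5 was among the 10 of the P-generation. F3C9 was the highest or the lowest of the 5 animals at all 5, and without it 0 were called in the family. Without F3C30, which left F3C9 as the only animal of the vehicle lineage, more were called, and their share of all sites is not given here. The 5 sites were called from these same values. At 4 of them the groups did not overlap, so an animal of the vehicle lineage had to be at the edge. The edge count of F3C9 is therefore no separate evidence on this animal. In Lhx4 of the pituitary, position 155735549, F3C9 was at 100% (16 reads) and F3C30 at 65.1%, against 30.3%, 20% and 42.1% (-45.3 percentage points, q = 5.36e-05, and -35.8 without F3C9, q = 0.0250). In Pax6, the eye and pancreas gene, position 105678120, F3C9 was at 10.7% and F3C30 at 65.5%, against 56.0%, 66.1% and 51.2%, so that the difference of 29.0 percentage points was -7.13 without F3C9.

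The remaining sites were in Emx2, Lhx2 and Pax8. In Emx2, position 59463985, in the same coding exon as the site called in the P-generation, F3C9 and F3C30 were at 33.3% and 51.4% against 67.4%, 85.7% and 60% (28.5 percentage points, q = 0.00439, and 18.9 without F3C9, q = 0.383), while the P-generation was at 58.3% and 65.5% against 51.4%, 30% and 53.3%. In Lhx2, position 38367459, they were at 51.3% and 66.7% against 83.9%, 90.7% and 80% (27.5 percentage points, q = 7.40e-05, and 17.7 without F3C9, q = 0.226). The site in Pax8, position 24475098 in an untranslated region, which also lies in the annotated gene Gm13415, was the only called promoter site. It was at 46.5% in F3C9 (43 reads), 12.7% in F3C30 and 1.52%, 8% and 0% in the decitabine lineage, and between 0% and 12.5% in the 5 animals of the P-generation. The difference of -25.6 percentage points was -10.7 without F3C9 (q = 0.137).

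Whether the group difference itself differed between generations was tested with an interaction term. By limma, 0 promoters (0% of all) and 0 bodies (0%) of the family passed, with 1 promoter (5.92% of all) and 4 bodies (6.85%) at an unadjusted p under 0.05. These were the promoter of Six6 and the bodies of Six2, Nkx2-2, Dlx1 and Pax8. At single CpG sites, 21 of 5143 were called (0.408%, against 0.971% of all sites), and 5 of them were also called in 1 generation. Of the remaining 16, 4 lay close together towards the 3′ end of Dlx1 (chr2:71532428-71532551), singled out here after the values were seen. At the last of them, in the untranslated region, C8 was at 0%, C14 at 23.8%, the decitabine treated animals at 0%, 2.70% and 0%, the vehicle lineage at 0% and 0%, and the decitabine lineage at 20.4%, 14% and 13.8%. C14 was on the side of the decitabine lineage there.

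Between the generations, 0 promoters and 0 bodies of the family passed by limma in either line. Over all genes 0 promoters (0%) and 0 bodies (0%) passed between vehicle animals, and 0 promoters (0%) and 3 bodies (0.0298%) between decitabine animals. At an unadjusted p under 0.05, the family had 3 promoters (5.34% of all) and 5 bodies (4.72%) between vehicle animals, and 2 promoters (7.3%) and 5 bodies (13%) between decitabine animals. Irx2 was among the bodies in both lines. It was at 13.8% in C8, 8.11% in C14 and 14.2%, 13.9% and 11.4% in the decitabine treated animals, against 8.37%, 3.87%, 7.96%, 7.35% and 6.62% in the F3-generation, so that only C14 lay within the range of the F3-generation. The limma adjusted p was 0.897 between vehicle and 0.303 between decitabine animals.

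Genes that work with these factors were measured in the same way. Of 24 partners (the Eya and Dach cofactors of the sine oculis proteins, the Ldb and Lmo cofactors of LIM proteins, the Pbx and Meis homeodomain partners, and the Tle co-repressors), 19 promoters and 21 bodies were tested, with median levels of 0.797% and 32.6%. By limma 0 passed in any comparison, and at an unadjusted p under 0.05 there were 1 promoter and 0 bodies in the P-generation (7.61% and 8.86% of all) and 3 promoters and 1 body in the F3-generation (2.79% and 2.83% of all). Of 12 Polycomb genes, 11 promoters (median 0.8%) and 7 bodies (median 28.1%) were tested, and 0 passed, with 0 promoters and 1 body at an unadjusted p under 0.05 in the P-generation and 0 and 0 in the F3-generation, against the same shares of all genes.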

How the data were processed

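The authors prepared RRBS libraries from spermatozoal DNA, trimmed reads with Trim Galore (0.3.3) and cutadapt (1.1), mapped to mm10, and called methylation with Bismark (0.10.1). CASAVA (1.8.2) is also named in the submitters' processing notes. They deposited, for each CpG cytosine of each animal, the count of methylated and of unmethylated reads, per strand, without normalization or pooling. These deposited counts were used as they are.

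The strands of a CpG were summed, and CpG sites with at least 10 reads in all 10 animals were kept. Genes were taken from GENCODE (vM21) on GRCm38. Promoters lay within 1 kb of the gene start and bodies beyond it, with at least 5 CpG sites. Each CpG site was tested with a logistic likelihood-ratio test and Benjamini-Hochberg q-values over 904364 sites, in place of the q-values of methylKit. Regions were tested across all protein-coding genes with limma (3.58.1) on log2((b+1)/(101-b)), b being the mean percentage, with 4 group means, and called at an adjusted p of 0.05. The tests were checked on simulated data, in which limma recovered most large changes but few or none of the smaller ones, so a count of 0 does not show that levels were alike. Family means were compared by exact permutation. The limma and permutation p-values take in the spread between single animals, while the q-values of CpG sites cover the sampling of reads only. In the comparison of the F3 lineages, all of these tests treat F3D1 and F3D31, both descended from D10, as independent animals. Wilson intervals cover counting error only. CpG sites printed with their sequence were the called sites with the largest differences, at most 12. Levels of single animals were given for every called site, for a promoter site of Nkx2-3 and for a site of Dlx1. Genes named were those with a called site, and the 5 highest and lowest levels and 5 largest differences for promoters and bodies. The members and lists were chosen with earlier results of these data known. Python 3.11.15 and R 4.3.3 were used. Coverage minimums, strands, thresholds, test, offset, window, shared spread and each animal were varied.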

Additional observations from a re-analysis of the deposited data

Results flagged for a closer look

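At 5 of the called CpG sites the group difference itself differed between the generations by the interaction test (q under 0.01). The P-generation difference minus the F3-generation difference was -48.4 percentage points in En2 (position 28169142), 51.8 in Emx2 (position 59464010), -37.2 in Pax5 (position 44646271), -47.3 in Lhx2 (position 38367459) and -42.9 in Emx2 (position 59463985). C8 was at the edge of the P-generation at the En2 site, at Emx2 59464010 and at Pax5 44646271, and F3C9 was at the edge of the F3-generation at Lhx2 38367459 and Emx2 59463985. The sites were called from these same values, so the edge positions are no separate evidence. The part of these 2 animals in the interaction was not tested. Groups of 2 and 3 animals are too small to be searched for single outlying animals.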

How the results depend on the processing

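The number of family CpG sites called in the P-generation (10) was 3 with a minimum of 20 reads, 0 with 30 reads, 0 with a term for the spread between animals, 16 with the difference of mean percentages, 37 with at least 15 and 1 with at least 40 percentage points, and 1 to 114 when each animal was left out in turn. In the F3-generation (5) it was 3, 1, 0, 17 (at least 15) and 1 (at least 40), 1 after thinning to the shallowest animal, and 0 to 25 with each animal left out. Apart from the term for the spread between animals, the shares of all sites called under these settings are not given here. A higher minimum of reads also leaves fewer sites to test. These counts can therefore not be read as particular to the family. The cause was not tested beyond the construction of each alternative. The Pax6 site changed sign without F3C9 (-7.13, range -7.13 to 47.7 over the animals left out). Differences of family means under the alternatives changed sign for promoters of the P-generation without C8 (0.087, range -0.181 to 0.087 over the animals left out), for P-generation bodies with summed reads (0.061), and for F3-generation bodies without F3C9 (0.031, range -0.181 to 0.031) and with 20 reads (0.060). In the P-generation the body of En2 passed the adjusted p only with C14 left out. That fit left C8, the vehicle-control animal with the higher En2 level, as the only one of its group. The share of all bodies called in that fit is not given here, so it cannot be read as particular to En2. Every other regional comparison of the family gave 0 calls under every alternative run. Decitabine and vehicle animals were different mice and the labels give no pairs, so no paired analysis of these groups was run. Between the generations, where descent ties the animals, the fit with the ancestor as a block called 0 family members, as did the fit without it. At 41 reads, the lowest median coverage of an animal over the family's sites, a single CpG level was imprecise, and small differences at a CpG site could not be detected.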
